A study of Mus musculus with 9 samples.

Results

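Homologous recombination copies an intact sister chromatid to mend a broken chromosome, and the Fanconi anaemia pathway clears crosslinks between DNA strands and hands the resulting breaks to the same machinery. The 36 genes listed here code for proteins of both routes and for the checkpoint kinases that signal to them. Each gene was represented by a probeset annotated to its symbol alone, and by the one with the highest mean where there were several. This gave 34 of the 36 genes among 34760 probesets. The strand exchange gene Xrcc2 and the resection factor Rbbp8 (CtIP) had no probeset of their own in the annotation used and were not analysed here. Of the 34 measured genes, 32 had a mean log2 level of at least 4, the minimum of the study's methods. Palb2 and Rad51ap1 lay under it.

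Transcript levels were measured in strains of HC11, a mouse mammary epithelial line from mid-pregnancy BALB/c mice, that all overexpressed the transcriptional coactivator Mkl1 fused to red fluorescent protein (RFP). HC11-ΔSAP cells expressed Mkl1-RFP that lacked the SAP domain, HC11-mutB1 cells expressed Mkl1-RFP whose site of interaction with serum response factor (SRF) was mutated, and HC11-FL control cells expressed full length Mkl1-RFP. All cultures were starved for 48 h in RPMI that held 0.03% FCS and no EGF, and RNA of 3 samples per strain was hybridised to Affymetrix mouse gene arrays. Each strain was 1 stably transfected population, selected with Geneticin and sorted for RFP, and a strain with RFP alone was not analysed here, so the control cells overexpressed Mkl1 too. The labels number the 3 arrays of a strain without saying whether they come from separate cultures. The p-values therefore measure only the spread between these arrays, which may be technical.

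In background, Brca1 with its partners directs a break to recombination, Brca2 acts with it once the ends are resected, and the Fanconi core complex attaches ubiquitin to Fancd2 and Fanci at a crosslink. Many genes of these routes are transcribed mainly in S and G2 phase, when a sister chromatid is at hand, and loss of BRCA1 or BRCA2 predisposes women to breast cancer. HC11 cells carry mutant p53, which acts downstream of the kinases Atm and Chek2.

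Arrays of a strain correlated at r = 0.9938 to 0.9954 across probesets and arrays of different strains at 0.9854 to 0.9889. All 7 mammary epithelial markers (Krt8, Krt18, Krt5, Krt14, Epcam, Cdh1 and Cldn3) were expressed in every strain. Their summed signal, on the log2 scale, was 12.76 to 12.77 in HC11-ΔSAP, 13.14 to 13.18 in HC11-mutB1 and 12.92 to 12.97 in HC11-FL cells. The sum hides opposite moves, by the test given below. In HC11-ΔSAP against HC11-FL cells Krt5, Krt18, Krt8, Krt14 and Cldn3 were lower (log2 fold change -1.90 to -0.27), and Epcam and Cdh1 higher (0.42 and 0.37). In HC11-mutB1 against HC11-FL cells Krt5, Krt14 and Epcam were higher (0.54 to 1.15). Krt8, Krt18 and Cldn3 were lower there (-0.94 to -0.65), and Cdh1 did not pass. Endothelial markers were under a log2 level of 4 (0 of 3 reached it). Of the fibroblast markers 4 of 5 reached it, and of the leukocyte and adipocyte markers 2 of 3 each. Cd3e (mean log2 level 4.70), Plin1 (4.62) and Cidec (4.40) lay near the array medians of 4.53 to 4.60. The fibroblast markers moved in different directions in HC11-ΔSAP against HC11-FL cells. Dcn was higher (log2 fold change 1.81), Pdgfra and Pdgfrb were lower (-0.42 and -0.38), and Col3a1 and Lum did not pass. The fibroblast sum was 8.57 to 8.61 in HC11-ΔSAP, 8.36 to 8.43 in HC11-mutB1 and 8.53 to 8.59 in HC11-FL cells, and the leukocyte sum, which rests mostly on Cd68, was 8.31 to 8.35, 7.59 to 7.68 and 7.92 to 7.98 in the same order. The adipocyte sum overlapped between all strains. All strains derive from the HC11 line, so a marker signal here does not show that cells of that type were present. The part of these signals in the results was not tested. In bulk RNA, fewer cells of a type and less RNA per cell cannot be told apart.

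Promoters of the genes are shown because many of them moved together. RefSeq promoters of build GRCm38.p6 were at hand for 29 of the 34 genes. None was at hand for Exo1, Fancd2, Rad54b, Rad50 and Nbn, so these genes are in no motif count. The 250 bases before each transcript start were searched on both strands for E2F letters (TTTGGCGC, TTTCGCGC, TTCCCGCC, TTGGCGGG or TTCGCGCC), for the cell cycle homology region (CHR, TTTGAA or TTCGAA), for CCAAT and for the CArG box, the element that SRF binds. E2F factors drive S phase genes, CHR elements are bound in G1 and G2 phase complexes, and CCAAT is the letter string bound by NF-Y. The 5 genes with E2F letters, in capitals, were the following, each as 60 bases of the coding strand.

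Brip1, chr11:86201301-86201360, minus strand: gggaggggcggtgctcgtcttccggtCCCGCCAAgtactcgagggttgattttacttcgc
Rad51ap1, chr6:126939589-126939648, minus strand: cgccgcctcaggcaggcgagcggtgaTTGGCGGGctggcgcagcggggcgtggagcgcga
Fancb, chrX:164980393-164980452, plus strand: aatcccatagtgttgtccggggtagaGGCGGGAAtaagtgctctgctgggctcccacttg
Fancm, chr12:65075523-65075582, plus strand: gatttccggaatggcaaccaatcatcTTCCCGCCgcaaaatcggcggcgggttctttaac
Clspn, chr4:126556832-126556891, plus strand: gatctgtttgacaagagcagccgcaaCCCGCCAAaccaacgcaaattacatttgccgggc

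The Rad51ap1 letters overlap a CCAAT match on the other strand. Of the 29 promoters, 5 (17.2%) held E2F letters, 18 (62.1%) CCAAT and 2 (6.9%) CHR letters, and 0 a CArG box. Over 10450 array genes with a mean log2 level of at least 4, the shares were 7.22%, 39.7%, 14% and 1.43%. The median GC content was 57.6% in the 29 promoters and 60% in those of the array genes. These are counts of letters, not of bound sites, and no match says only that the letters are not in the window.

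Brca1, Chek1 and Rad54l are among the genes with the largest fall in HC11-ΔSAP cells. Exo1, which had the largest fall, and Fancd2 had no promoter at hand. The 120 bases before the starts of Brca1, Chek1 and Rad54l are given with CCAAT in capitals.

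Brca1, chr11:101551956-101552075, minus strand: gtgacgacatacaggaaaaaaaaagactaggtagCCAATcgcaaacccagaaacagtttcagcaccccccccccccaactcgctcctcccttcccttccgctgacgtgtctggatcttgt
Chek1, chr9:36726659-36726778, minus strand: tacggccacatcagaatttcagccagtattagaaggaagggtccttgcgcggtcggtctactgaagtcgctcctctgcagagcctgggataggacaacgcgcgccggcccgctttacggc
Rad54l, chr4:116123691-116123810, minus strand: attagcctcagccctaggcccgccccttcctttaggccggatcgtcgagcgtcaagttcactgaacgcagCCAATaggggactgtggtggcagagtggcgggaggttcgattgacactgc

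The Brca1 match lay at -86 to -82 bases from the start and the Rad54l match at -50 to -46, while the Chek1 window held no match. Among genes that were lower in HC11-ΔSAP cells relative to HC11-FL cells, 4 of 13 promoters (30.8%) held E2F letters and 9 (69.2%) CCAAT. Among the genes that did not pass this test the counts were 1 of 16 (6.25%) and 9 of 16 (56.2%). The split by E2F letters rests on 5 promoters and was not tested.

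The genes were lower in HC11-ΔSAP cells relative to HC11-FL cells or did not pass the test, and they were higher in HC11-mutB1 cells relative to HC11-FL cells or did not pass it. With limma and a threshold of 0.01 on p adjusted across the whole array, 16 of 34 genes (47.1%) fell and 0 rose in HC11-ΔSAP cells relative to HC11-FL cells. The share of lower probesets was 6.02% over the whole array and 10.1% over the 20286 probesets with a mean log2 level of at least 4, and the shares of higher ones were 7.1% and 11.9%. The genes were chosen with earlier results of these data known, so their excess over these shares is a description and was not tested. At an unadjusted p under 0.05, 22 genes were lower and 2 higher, against 4332 and 4321 of the 20286 probesets. The median log2 fold change of the 34 genes was -0.36, against -0.01 over the 20286 probesets. Exo1, Chek1, Fancd2, Brca1 and Rad54l, 5 genes in all, also passed the fold minimum of 2 in the study's methods, as did 1.51% of the 20286 probesets in that direction. Without HC11-ΔSAP replicate 2, or without HC11-FL replicate 2 or 3, 13 genes remained lower.

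In HC11-mutB1 cells 11 of 34 genes (32.4%) were higher and 0 lower than in HC11-FL cells, while 7.1% of all probesets were higher and 5.04% lower. Over the 20286 probesets these shares were 11.9% and 8.32%. At an unadjusted p under 0.05, 22 genes were higher and 1 lower, against 4595 and 4126 of the 20286 probesets. The median log2 fold change was 0.34, against -0.02 over the 20286 probesets, and 0 genes passed the fold minimum, which 1.65% of the 20286 probesets did in the upward direction. This count was the most sensitive to single arrays. It was 7 without HC11-mutB1 replicate 2 and 7 without HC11-mutB1 replicate 3.

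Among the 34 genes the most calls were made between HC11-ΔSAP and HC11-mutB1 cells, the comparison with the fewest calls over all probesets (3259, against 4562 for HC11-ΔSAP and 4219 for HC11-mutB1 relative to HC11-FL). In HC11-ΔSAP cells 23 genes (67.6%) were lower and 0 higher than in HC11-mutB1 cells, with 5.04% of all and 8.45% of the 20286 probesets lower and 4.34% and 7.25% higher. At an unadjusted p under 0.05, 29 were lower and 1 higher, against 3951 and 3702 of the 20286 probesets. The median log2 fold change was -0.72, and 12 genes passed the fold minimum, as did 1.7% of the 20286 probesets. These comparisons share arrays, so they are not independent of each other.

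**Figure D1:**
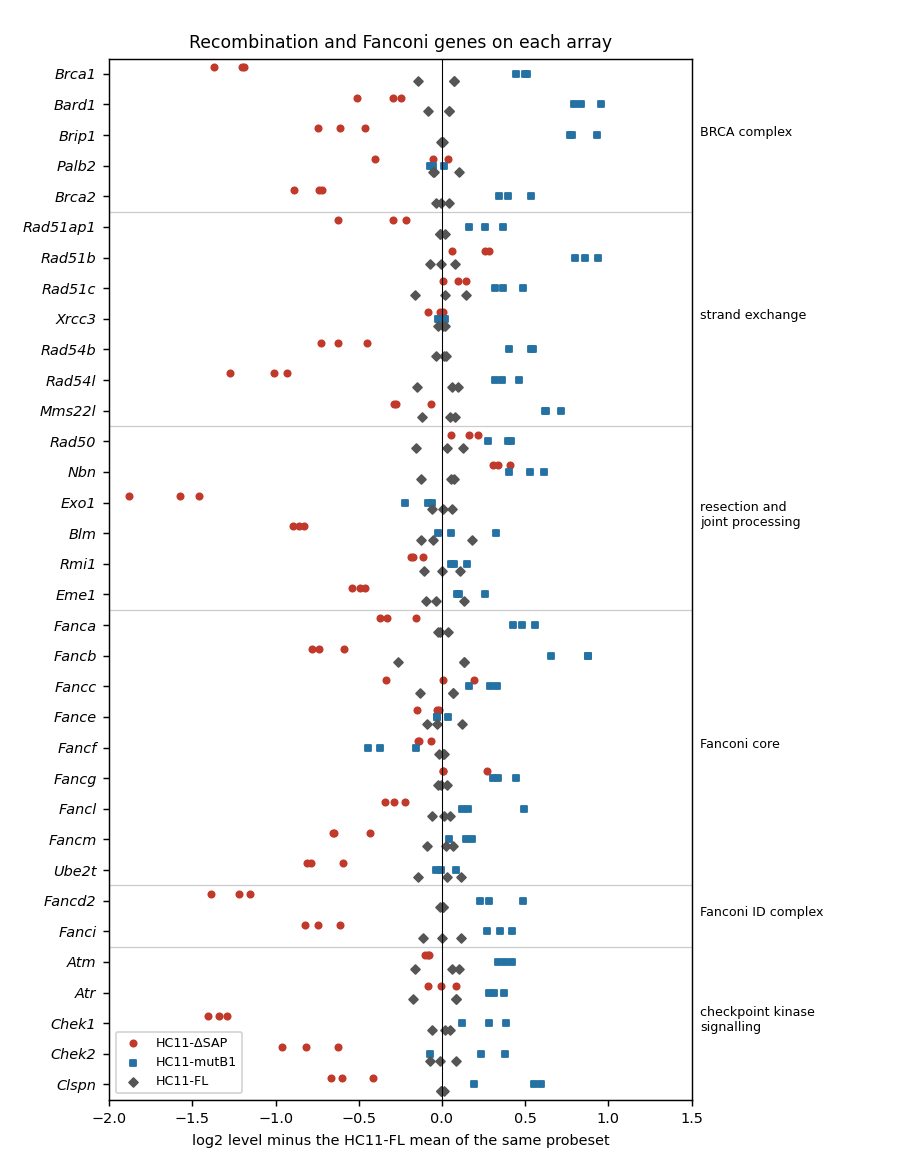
Log2 level of each gene on each of the 9 arrays, minus the HC11-FL mean of the same probeset (x axis), with genes grouped by role down the page. Circles are HC11-ΔSAP, squares HC11-mutB1 and diamonds HC11-FL arrays. In 14 of 34 genes every HC11-ΔSAP array lay below every HC11-FL array and every HC11-mutB1 array above them.

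An order with every HC11-ΔSAP array lowest, every HC11-mutB1 array highest and the HC11-FL arrays in between was found in 14 of the 34 genes. It was found in 3.08% of the 20286 probesets. The 14 genes were Brca1, Bard1, Brip1, Brca2, Rad51ap1, Rad54b, Rad54l, Fanca, Fancb, Fancl, Fancd2, Fanci, Chek1 and Clspn. For Brca1, Brip1, Brca2, Rad54b and Fancb both the fall and the rise passed the test, 5 of 34 genes against 0.863% of the 20286 probesets. The arrays of HC11-ΔSAP lay wholly below those of HC11-FL cells in 22 genes (23.1% of the 20286 probesets). Those of HC11-mutB1 lay wholly above those of HC11-FL cells in 23 genes (24.2%). Those of HC11-ΔSAP lay wholly below those of HC11-mutB1 cells in 28 genes (22.3%). In the opposite directions these counts included Nbn alone, whose HC11-ΔSAP arrays lay above those of HC11-FL cells (22.7%), and Exo1 and Fancf, whose HC11-mutB1 arrays lay below them (22.5%). Fancf was also the gene whose HC11-ΔSAP arrays lay wholly above those of HC11-mutB1 cells (21.5%).

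Proliferation markers moved in the same directions. Of 11 measured, 9 fell and 0 rose in HC11-ΔSAP cells relative to HC11-FL cells, with a median log2 fold change of -1.24, and 7 were higher and 0 lower in HC11-mutB1 cells relative to HC11-FL cells, with a median of 0.40. At an unadjusted p under 0.05 these opposite counts were 0 and 1. Over the 20286 probesets 10.1% were lower and 11.9% higher in the first comparison, and 11.9% higher and 8.32% lower in the second. The mean log2 level over the 11 was 7.20 to 7.33 on the HC11-ΔSAP, 8.89 to 8.98 on the HC11-mutB1 and 8.37 to 8.46 on the HC11-FL arrays, and all 11 had a mean level of at least 4. Top2a, Rrm2, Ccna2 and Plk1, genes of DNA replication and mitosis, had log2 fold changes of -1.68, -1.63, -1.59 and -1.53 in HC11-ΔSAP against HC11-FL cells, all of which passed. The part of cell division in the results below was not tested.

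All 5 genes of the BRCA complex were measured. In HC11-ΔSAP cells 3 of them were lower than in HC11-FL cells, in HC11-mutB1 cells 4 were higher than in HC11-FL cells, and 4 were lower in HC11-ΔSAP cells relative to HC11-mutB1 cells. Here and for the role groups below, the shares over the 20286 probesets were 10.1% lower, 11.9% higher and 8.45% lower in the same order. Differences between role groups were not tested. Brca1, the ubiquitin ligase that steers breaks to recombination, lay at log2 levels of 4.85, 5.03 and 5.02 in HC11-ΔSAP, 6.67, 6.73 and 6.72 in HC11-mutB1 and 6.08, 6.30 and 6.29 in HC11-FL cells. The strains did not overlap. Brca1 was 2.38-fold lower in the HC11-ΔSAP strain relative to HC11-FL cells (log2 fold change -1.25, SE 0.08, adjusted p = 1.61e-05) and, in the opposite direction, 1.40-fold higher in the HC11-mutB1 strain relative to HC11-FL cells (0.48, SE 0.08, adjusted p = 0.00263). The rise did not pass without HC11-mutB1 replicate 2 (adjusted p = 0.0133) or 3 (0.0125), and its adjusted p ran between 0.000734 and 0.0133 over 18 alternatives.

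Brca2, which acts after resection in the same route, had levels of 5.06, 4.92 and 5.08 in HC11-ΔSAP, 6.14, 6.20 and 6.34 in HC11-mutB1 and 5.77, 5.84 and 5.79 in HC11-FL cells. Again no array of one strain reached the range of another. It was 1.72-fold lower in HC11-ΔSAP (log2 fold change -0.78, SE 0.07, adjusted p = 9.96e-05) and, in the opposite direction, 1.34-fold higher in the HC11-mutB1 strain (0.42, SE 0.07, adjusted p = 0.0029) than in HC11-FL cells. The rise was lost without HC11-FL replicate 1 (adjusted p = 0.0131) or 3 (0.0134) or HC11-mutB1 replicate 2 (0.011), and its adjusted p ran between 0.000808 and 0.0134 over the alternatives. Brip1, the helicase bound by Brca1, was at 4.89, 4.74 and 4.61 in HC11-ΔSAP, 6.12, 6.28 and 6.13 in HC11-mutB1 and 5.35, 5.34 and 5.36 in HC11-FL cells. Relative to HC11-FL cells it was 1.52-fold lower in the HC11-ΔSAP strain (log2 fold change -0.60, SE 0.08, adjusted p = 0.000829). In the HC11-mutB1 strain it was 1.77-fold higher (0.83, SE 0.08, adjusted p = 0.000166). Both calls held under every alternative run at an adjusted p with no fold minimum. Its promoter window above holds E2F letters.

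Bard1, the partner of Brca1 in the ubiquitin ligase, lay at 4.69, 4.74 and 4.47 in HC11-ΔSAP, 5.78, 5.82 and 5.94 in HC11-mutB1 and 5.02, 4.90 and 5.02 in HC11-FL cells. It was 1.82-fold higher in the HC11-mutB1 strain relative to HC11-FL cells (adjusted p = 0.000169), and its log2 fold change of -0.35 for HC11-ΔSAP cells did not pass (adjusted p = 0.0175). A pair of HC11-FL arrays held exactly the same Bard1 value, so its SE may be too small. The other probesets of Bard1 had lower levels and log2 fold changes of -0.00 and -0.11 in HC11-ΔSAP and 0.62 and 0.13 in HC11-mutB1 cells, none of which passed. Palb2, the link between Brca1 and Brca2, was near background, at 3.87, 3.97 and 3.53 in HC11-ΔSAP, 3.86, 3.88 and 3.94 in HC11-mutB1 and 3.88, 4.03 and 3.88 in HC11-FL cells. Its ranges overlapped in every comparison.

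Of the strand exchange genes, 7 of 8 were measured. In HC11-ΔSAP cells 2 were lower than in HC11-FL cells and 5 lower than in HC11-mutB1 cells, and 3 were higher in HC11-mutB1 cells relative to HC11-FL cells. The translocases of the Rad54 family, which help to open the donor duplex, were those lower in HC11-ΔSAP cells relative to HC11-FL cells. Rad54l was at 5.13, 4.86 and 5.21 in HC11-ΔSAP, 6.60, 6.50 and 6.46 in HC11-mutB1 and 5.99, 6.24 and 6.20 in HC11-FL cells. It was 2.1-fold lower in the HC11-ΔSAP strain (log2 fold change -1.07, SE 0.10, adjusted p = 0.00018), and its log2 fold change of 0.38 for HC11-mutB1 cells did not pass (adjusted p = 0.0375). Rad54b was at 4.48, 4.66 and 4.38 in HC11-ΔSAP, 5.65, 5.51 and 5.66 in HC11-mutB1 and 5.13, 5.12 and 5.07 in HC11-FL cells. The strains did not overlap in either gene. Rad54b was 1.52-fold lower in HC11-ΔSAP (adjusted p = 0.000771) and 1.41-fold higher in the HC11-mutB1 strain (adjusted p = 0.00236). The rise was lost without HC11-FL replicate 3 (adjusted p = 0.0121) or HC11-mutB1 replicate 1 (0.0122) or 3 (0.0119), and over the alternatives its adjusted p ran between 0.000653 and 0.0122.

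Rad51b, Rad51c and Xrcc3, which assist strand exchange, did not pass in HC11-ΔSAP against HC11-FL cells, and their difference from the Rad54 genes was not tested. Rad51b was at 5.03, 4.83 and 5.05 in HC11-ΔSAP, 5.57, 5.71 and 5.63 in HC11-mutB1 and 4.70, 4.77 and 4.85 in HC11-FL cells. It was 1.82-fold higher in the HC11-mutB1 strain relative to HC11-FL cells (log2 fold change 0.87, SE 0.07, adjusted p = 9.77e-05), where the strains did not overlap, while the HC11-ΔSAP and HC11-FL ranges did (0.20, adjusted p = 0.112). It was also lower in HC11-ΔSAP against HC11-mutB1 cells (log2 fold change -0.67, adjusted p = 0.000482). Rad51c was at 5.99, 6.13 and 6.08 in HC11-ΔSAP, 6.35, 6.30 and 6.47 in HC11-mutB1 and 5.82, 6.13 and 6.0 in HC11-FL cells. Its log2 fold change of 0.39 for HC11-mutB1 cells did not pass (adjusted p = 0.0146) and did so without HC11-FL replicate 2 (0.0086). Xrcc3 differed by no more than 0.03 on the log2 scale, at 6.17, 6.07 and 6.14 in HC11-ΔSAP, 6.13, 6.17 and 6.15 in HC11-mutB1 and 6.17, 6.13 and 6.16 in HC11-FL cells.

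Mms22l, which acts in the repair of stalled forks, was at 6.03, 6.04 and 6.25 in HC11-ΔSAP, 6.94, 7.04 and 6.95 in HC11-mutB1 and 6.20, 6.37 and 6.40 in HC11-FL cells. It was 1.57-fold higher in the HC11-mutB1 strain relative to HC11-FL cells (adjusted p = 0.000686), and the ranges of HC11-ΔSAP and HC11-FL cells overlapped. Rad51ap1, which promotes joint molecule formation, had levels near background of 3.57, 3.15 and 3.49 in HC11-ΔSAP, 4.04, 4.15 and 3.94 in HC11-mutB1 and 3.80, 3.77 and 3.77 in HC11-FL cells. It passed only between HC11-ΔSAP and HC11-mutB1 cells (log2 fold change -0.64, adjusted p = 0.00423). That call was lost without HC11-ΔSAP replicate 3 (adjusted p = 0.0115) and without HC11-mutB1 replicate 1 (0.0179), 2 (0.0198) or 3 (0.0102), and over the alternatives its adjusted p ran between 0.00348 and 0.0225.

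Resection and the processing of joint molecules were represented by 6 of 7 genes. In HC11-ΔSAP cells 3 were lower than in HC11-FL cells and 3 lower than in HC11-mutB1 cells, and 1 was higher in HC11-mutB1 cells relative to HC11-FL cells. The 1 higher gene was 16.7% of the 6, near the 11.9% of the 20286 probesets. Exo1, the exonuclease of long resection, showed the largest fall of all 34 genes in HC11-ΔSAP against HC11-FL cells. It was at 4.53, 4.65 and 4.23 in HC11-ΔSAP, 5.89, 6.05 and 6.03 in HC11-mutB1 and 6.05, 6.11 and 6.17 in HC11-FL cells. It was 3.11-fold lower in the HC11-ΔSAP strain relative to HC11-FL cells (log2 fold change -1.64, SE 0.11, adjusted p = 2.19e-05), and relative to HC11-mutB1 cells it was 2.86-fold lower (adjusted p = 3.79e-05). Against HC11-FL cells, HC11-mutB1 cells differed by -0.12 (adjusted p = 0.521). Blm, the helicase that unwinds joint molecules, was at 5.59, 5.55 and 5.62 in HC11-ΔSAP, 6.42, 6.50 and 6.77 in HC11-mutB1 and 6.32, 6.63 and 6.39 in HC11-FL cells. The HC11-ΔSAP arrays lay below all others and the remaining strains overlapped. Blm was 1.82-fold lower in the HC11-ΔSAP strain relative to HC11-FL cells (adjusted p = 0.000659). Eme1, the partner of the nuclease Mus81, was 1.41-fold lower (adjusted p = 0.00158), and Rmi1, the partner of Blm, differed by no more than 0.25 on the log2 scale in any comparison and passed in none.

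The MRN complex, which senses broken ends, was mixed in HC11-ΔSAP against HC11-FL cells. Its nuclease Mre11a, from the list of other genes of these routes and named after its values were seen, was at 7.55, 7.67 and 7.56 in HC11-ΔSAP, 8.23, 8.34 and 8.37 in HC11-mutB1 and 8.01, 8.01 and 8.03 in HC11-FL cells, with no overlap. It was lower in HC11-ΔSAP (log2 fold change -0.42, adjusted p = 0.000739) and higher in HC11-mutB1 (0.30, adjusted p = 0.00534) relative to HC11-FL cells. A pair of HC11-FL arrays held exactly the same Mre11a value. Nbn was at 7.55, 7.53 and 7.63 in HC11-ΔSAP, 7.62, 7.75 and 7.83 in HC11-mutB1 and 7.09, 7.27 and 7.29 in HC11-FL cells. Both mutant strains lay above the HC11-FL arrays and overlapped each other. The rise of 1.43-fold in HC11-mutB1 cells passed (adjusted p = 0.00178), and the log2 fold change of 0.35 for HC11-ΔSAP cells did not (adjusted p = 0.0115, between 0.00367 and 0.0762 over the alternatives). The other Nbn probeset had log2 fold changes of -0.01 in HC11-ΔSAP and -0.13 in HC11-mutB1 cells, and with the mean of both probesets the rise in HC11-mutB1 cells was 0.19 and did not pass (adjusted p = 0.0484). Rad50 was at 8.29, 8.41 and 8.46 in HC11-ΔSAP, 8.52, 8.66 and 8.64 in HC11-mutB1 and 8.08, 8.28 and 8.37 in HC11-FL cells. Its log2 fold change of 0.36 for HC11-mutB1 cells did not pass (adjusted p = 0.0178).

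All 9 genes around the Fanconi core complex were measured. In HC11-ΔSAP cells 3 (Ube2t, Fancb and Fancm) were lower than in HC11-FL cells and 5 lower than in HC11-mutB1 cells. Fancb and Fanca were the 2 that rose in HC11-mutB1 cells relative to HC11-FL cells (22.2%, against 11.9% of the 20286 probesets). Fancb, a subunit coded on the X chromosome, was at 4.84, 4.80 and 4.99 in HC11-ΔSAP, 6.23, 6.46 and 6.46 in HC11-mutB1 and 5.31, 5.71 and 5.71 in HC11-FL cells. The strains did not overlap, and a pair of HC11-FL arrays held exactly the same value. Fancb was 1.63-fold lower in HC11-ΔSAP (log2 fold change -0.70, SE 0.12, adjusted p = 0.00397) and, in the opposite direction, 1.74-fold higher in the HC11-mutB1 strain (0.80, SE 0.12, adjusted p = 0.00218). The fall was lost without HC11-ΔSAP replicate 1 (adjusted p = 0.0177) or 2 (0.0194) or HC11-FL replicate 2 (0.0173) or 3 (0.0179), with a range over the alternatives between 0.000904 and 0.0194. The rise was lost without HC11-mutB1 replicate 2 (adjusted p = 0.0117) or 3 (0.0114), with a range between 0.000614 and 0.0118. Between HC11-ΔSAP and HC11-mutB1 cells the difference of 2.84-fold passed under every alternative (adjusted p = 8.66e-05).

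Ube2t, the conjugating enzyme of the pathway, was at 5.04, 5.23 and 5.01 in HC11-ΔSAP, 5.79, 5.82 and 5.91 in HC11-mutB1 and 5.94, 5.85 and 5.68 in HC11-FL cells. It was 1.66-fold lower in the HC11-ΔSAP strain relative to HC11-FL cells (adjusted p = 0.000494), with the HC11-mutB1 and HC11-FL arrays overlapping. Fancm, the translocase that brings the core complex to DNA, was 1.49-fold lower in the HC11-ΔSAP strain (adjusted p = 0.000962). Fanca, a core subunit, was at 6.19, 6.01 and 5.97 in HC11-ΔSAP, 6.77, 6.82 and 6.90 in HC11-mutB1 and 6.33, 6.32 and 6.38 in HC11-FL cells. Its rise of 1.40-fold in HC11-mutB1 cells passed (adjusted p = 0.00117), and its log2 fold change of -0.29 for HC11-ΔSAP cells did not pass (adjusted p = 0.0166) except without HC11-ΔSAP replicate 1 (0.00453), with a threshold of 0.05, or with low probesets removed. The ligase subunit Fancl passed between HC11-ΔSAP and HC11-mutB1 cells (log2 fold change -0.54, adjusted p = 0.00646). Fancl lost that call without HC11-ΔSAP replicate 1 (adjusted p = 0.0275), 2 (0.0265) or 3 (0.0182), HC11-mutB1 replicate 2 (0.0131) or HC11-FL replicate 1 (0.0121), 2 (0.0126) or 3 (0.0142), with a range over the alternatives between 0.00194 and 0.0275. It was called lower in HC11-ΔSAP cells relative to HC11-FL cells (adjusted p = 0.00771) without HC11-mutB1 replicate 3.

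The remaining core subunits differed less. Fancf was at 6.47, 6.40 and 6.40 in HC11-ΔSAP, 6.17, 6.38 and 6.10 in HC11-mutB1 and 6.55, 6.52 and 6.55 in HC11-FL cells. It was the gene with the most negative log2 fold change in HC11-mutB1 against HC11-FL cells, at -0.32, which did not pass (adjusted p = 0.0161) except without HC11-mutB1 replicate 2 (0.00192), with a threshold of 0.05, or with low probesets removed. Fancg was at 6.22, 6.22 and 6.48 in HC11-ΔSAP, 6.66, 6.55 and 6.52 in HC11-mutB1 and 6.20, 6.19 and 6.25 in HC11-FL cells. Its HC11-mutB1 arrays lay above all others, and the log2 fold change of 0.36 against HC11-FL cells did not pass (adjusted p = 0.013). Without HC11-ΔSAP replicate 3 it did (0.00257), as did the difference between HC11-ΔSAP and HC11-mutB1 cells (0.0063). Fance was at 7.13, 7.0 and 7.12 in HC11-ΔSAP, 7.18, 7.12 and 7.12 in HC11-mutB1 and 7.27, 7.12 and 7.06 in HC11-FL cells, with overlap in every comparison. Fancc passed in no comparison.

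Fancd2 and Fanci form the clamp that the core complex marks with ubiquitin, and both fell in HC11-ΔSAP cells. Fancd2 was at 4.74, 4.58 and 4.81 in HC11-ΔSAP, 6.19, 6.25 and 6.45 in HC11-mutB1 and 5.97, 5.97 and 5.95 in HC11-FL cells. It was 2.39-fold lower in the HC11-ΔSAP strain relative to HC11-FL cells (log2 fold change -1.25, SE 0.08, adjusted p = 2.36e-05), and relative to HC11-mutB1 cells it was 3.01-fold lower (adjusted p = 7.57e-06). Fanci was at 4.47, 4.26 and 4.34 in HC11-ΔSAP, 5.43, 5.35 and 5.50 in HC11-mutB1 and 5.20, 5.08 and 4.97 in HC11-FL cells. It was 1.65-fold lower in the HC11-ΔSAP strain relative to HC11-FL cells (adjusted p = 0.00036), and relative to HC11-mutB1 cells it was 2.1-fold lower (adjusted p = 5.5e-05). The strains did not overlap in either gene. The log2 fold changes of 0.33 and 0.35 in HC11-mutB1 against HC11-FL cells did not pass (adjusted p = 0.0237 and 0.0176).

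Among the 5 genes of checkpoint signalling, 3 were lower in HC11-ΔSAP cells relative to HC11-FL cells, 1 was higher in HC11-mutB1 cells relative to HC11-FL cells and 4 were lower in HC11-ΔSAP cells relative to HC11-mutB1 cells. The 1 higher gene was 20% of the 5, against 11.9% of the 20286 probesets. The genes lower in HC11-ΔSAP cells relative to HC11-FL cells were the effector kinases and the mediator Clspn, not the apical kinases. Chek1, the effector of Atr, was at 5.60, 5.55 and 5.48 in HC11-ΔSAP, 7.01, 7.18 and 7.28 in HC11-mutB1 and 6.83, 6.94 and 6.91 in HC11-FL cells. It was 2.54-fold lower in the HC11-ΔSAP strain relative to HC11-FL cells (log2 fold change -1.35, SE 0.07, adjusted p = 9.43e-06), and its log2 fold change of 0.26 for HC11-mutB1 cells did not pass (adjusted p = 0.0415). The strains did not overlap. Chek2, the effector of Atm, was at 6.06, 6.21 and 6.40 in HC11-ΔSAP, 6.95, 7.40 and 7.26 in HC11-mutB1 and 6.95, 7.11 and 7.02 in HC11-FL cells. It was 1.74-fold lower in the HC11-ΔSAP strain relative to HC11-FL cells (adjusted p = 0.00253), and the HC11-mutB1 and HC11-FL ranges overlapped. The fall was lost without HC11-ΔSAP replicate 1 (adjusted p = 0.0108) or 2 (0.0123) or HC11-FL replicate 2 (0.0124) or 3 (0.0114), with a range over the alternatives between 0.000712 and 0.0124.

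Clspn, which couples Atr to Chek1, was at 4.99, 4.74 and 4.81 in HC11-ΔSAP, 5.60, 6.0 and 5.96 in HC11-mutB1 and 5.40, 5.40 and 5.42 in HC11-FL cells, again with no overlap. A pair of HC11-FL arrays held exactly the same value. It was 1.48-fold lower in the HC11-ΔSAP strain relative to HC11-FL cells (adjusted p = 0.00794), the weakest of the 16 calls. It was lost without HC11-ΔSAP replicate 2 (adjusted p = 0.0343) or 3 (0.0326), HC11-mutB1 replicate 3 (0.0125) or HC11-FL replicate 1 (0.0267), 2 (0.0274) or 3 (0.0301), with a range over the alternatives between 0.00143 and 0.0343. The rise in HC11-mutB1 cells did not pass (adjusted p = 0.0244) and did without HC11-mutB1 replicate 1 (0.00281). Against HC11-mutB1 cells the fall in HC11-ΔSAP cells was 2.01-fold (adjusted p = 0.00047).

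Atm, the kinase that responds to double strand breaks, was at 7.32, 7.33 and 7.34 in HC11-ΔSAP, 7.75, 7.84 and 7.79 in HC11-mutB1 and 7.25, 7.47 and 7.52 in HC11-FL cells. The HC11-ΔSAP values lay within the HC11-FL range and the HC11-mutB1 values above it. The rise of 1.30-fold in HC11-mutB1 against HC11-FL cells passed (adjusted p = 0.00623). It was lost without HC11-ΔSAP replicate 1 (adjusted p = 0.0125), 2 (0.0138) or 3 (0.0131), HC11-mutB1 replicate 1 (0.0174), 2 (0.0279) or 3 (0.0232) or HC11-FL replicate 2 (0.0134), with a range over the alternatives between 0.00188 and 0.0279. The difference between HC11-ΔSAP and HC11-mutB1 cells (log2 fold change -0.47, adjusted p = 0.00262) was lost without HC11-ΔSAP replicate 1 (0.0121), 2 (0.0126) or 3 (0.0116) or HC11-mutB1 replicate 2 (0.0138) or 3 (0.0122), with a range between 0.000414 and 0.0138. Atr, the kinase of stalled forks, had a log2 fold change of -0.00 for HC11-ΔSAP and 0.32 in HC11-mutB1 against HC11-FL cells, neither of which passed (adjusted p = 0.995 and 0.0253). Its difference between HC11-ΔSAP and HC11-mutB1 cells of -0.33 (adjusted p = 0.0298) passed without HC11-FL replicate 1 (0.00791).

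**Figure D2:**
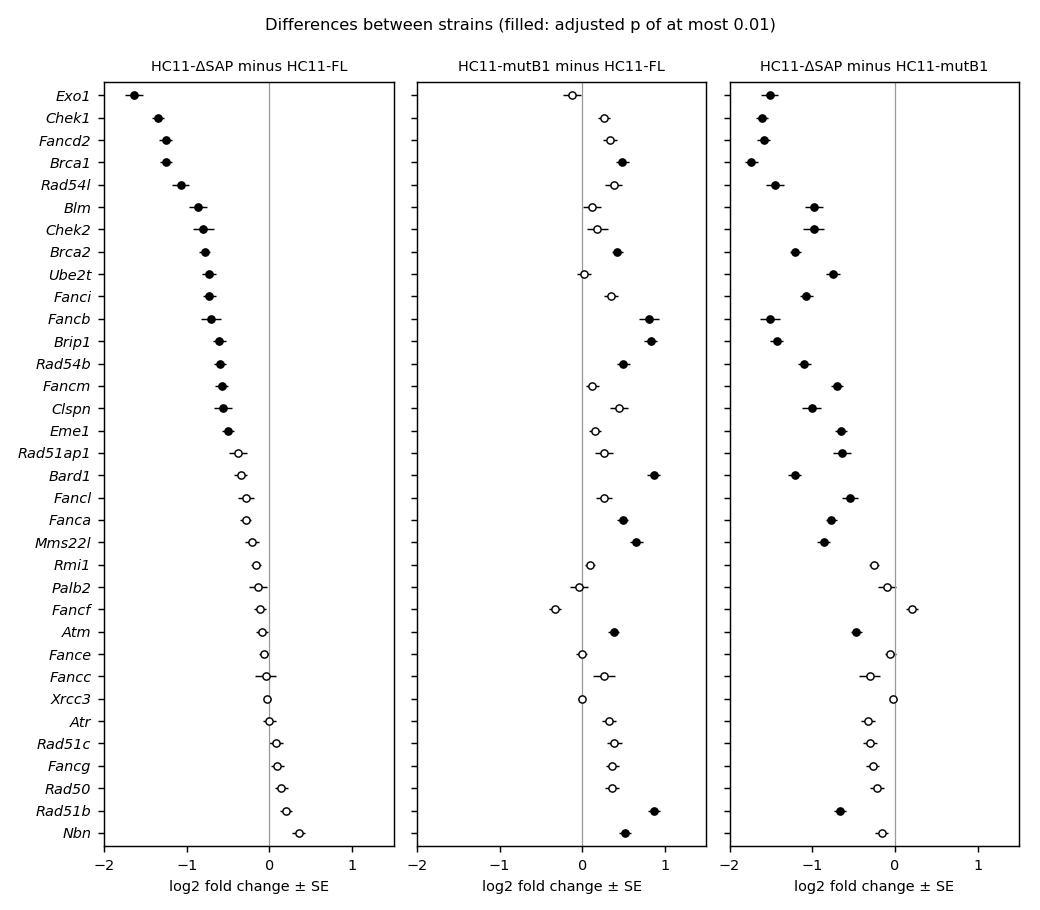
Log2 fold change ± SE (x axis) of each gene in HC11-ΔSAP against HC11-FL, HC11-mutB1 against HC11-FL and HC11-ΔSAP against HC11-mutB1 cells, ordered by the first. Filled circles mark an adjusted p of at most 0.01 in limma, which 16, 11 and 23 of the 34 genes reached.

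The other genes of these routes, 50 of 54 measured, were less one-sided in HC11-ΔSAP against HC11-FL cells. There 12 (24%) were lower and 6 (12%) higher, against 10.1% and 11.9% of the 20286 probesets. The median log2 fold change was -0.10. For HC11-mutB1 against HC11-FL cells 13 (26%) were higher and 0 lower, against 11.9% and 8.32% of the 20286 probesets. The median was 0.11, and 2 were lower at an unadjusted p under 0.05. In HC11-ΔSAP against HC11-mutB1 cells 15 (30%) were lower and 0 higher, against 8.45% and 7.25% of the 20286 probesets. The median was -0.20, and 2 were higher at an unadjusted p under 0.05. Parpbp, a brake on recombination, was at 4.91, 5.07 and 5.29 in HC11-ΔSAP, 6.80, 6.83 and 6.87 in HC11-mutB1 and 6.48, 6.71 and 6.49 in HC11-FL cells, and was 2.77-fold lower in the HC11-ΔSAP strain relative to HC11-FL cells (adjusted p = 3.27e-05). Fignl1, an ATPase of recombination, was 2.29-fold lower, the resolvase Gen1 2.06-fold and the polymerase of end joining by microhomology, Polq, 1.82-fold (adjusted p = 6.5e-05, 0.000443 and 0.000222). HC11-ΔSAP arrays did not overlap HC11-FL arrays in any of these 4 genes. Among the 6 higher genes, named after their values were seen, were Top3a, the topoisomerase partner of Blm, and Faap100, a core complex subunit, at 0.58 and 0.53.

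The lists of other repair routes follow for HC11-ΔSAP against HC11-FL cells. In that comparison 10.1% of the 20286 probesets were lower and 11.9% higher. Of 13 genes of non-homologous end joining, 1 was lower (Xrcc6, log2 fold change -0.29) and 0 higher, with 2 and 3 at an unadjusted p under 0.05 and a median of 0.02. Polm, Xrcc4 and Mad2l2 had log2 fold changes of 0.46, 0.42 and 0.26 that did not pass. In base excision repair 3 of 19 (15.8%) were lower and 2 (10.5%) higher, near those shares, with a median of -0.03. The flap endonuclease Fen1, the glycosylase Ung and the ligase Lig3 were lower, at -0.73, -0.47 and -0.31, and Aptx was higher, at 0.51. In nucleotide excision repair 1 of 17 was lower (Gtf2h3, -0.26) and 2 higher (Xpa, 0.60, and Ercc1, 0.29), with a median of -0.05, and Ercc5 had a log2 fold change of -0.40 that did not pass.

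In mismatch repair 3 of 5 measured genes of 7 were lower and 0 higher, also 0 at an unadjusted p under 0.05, with a median of -0.29. The 3 were 60% of the 5, against 10.1% of the 20286 probesets. Mlh3, a MutL protein that also acts at joint molecules in meiosis, had levels of 4.0, 4.44 and 4.42 in HC11-ΔSAP, 5.19, 5.06 and 5.22 in HC11-mutB1 and 5.93, 6.10 and 6.05 in HC11-FL cells. It was 3.33-fold lower in the HC11-ΔSAP strain relative to HC11-FL cells (adjusted p = 2.87e-05). It also passed as lower in HC11-mutB1 cells relative to HC11-FL cells (log2 fold change -0.87, adjusted p = 0.00126). Of the 34 genes, 0 passed as lower in both mutant strains. The arrays of Exo1 and Fancf nevertheless lay below those of HC11-FL cells in both. Pms2 and Msh6 were lower in HC11-ΔSAP cells, at -0.37 and -0.29, and Msh3 had a log2 fold change of 0.08 that did not pass. Against HC11-FL cells, HC11-mutB1 cells showed 2 higher and 1 lower gene of end joining, 3 and 5 of base excision, 3 and 2 of nucleotide excision and 1 and 1 of mismatch repair, with medians of 0.15, 0.02, -0.02 and -0.04. In that comparison 11.9% of the 20286 probesets were higher and 8.32% lower. The largest rise was that of Neil3 in base excision, named after its values were seen, at 3.94-fold (adjusted p = 0.000141). It was larger than any rise among the 34 genes. Differences between these lists were not tested.

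**Figure D3:**
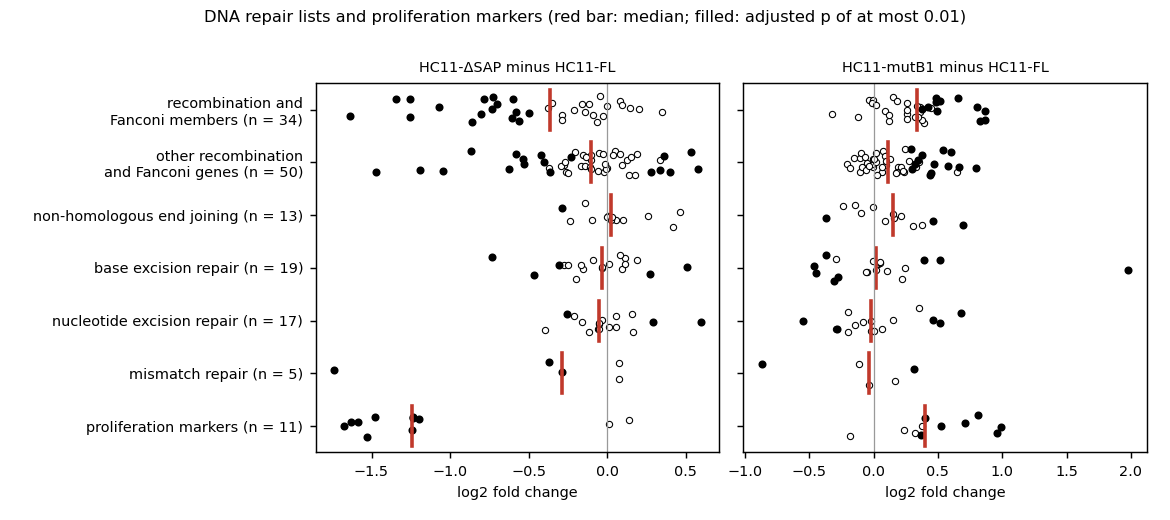
Log2 fold change (x axis) of each gene of the recombination and Fanconi set, of other repair lists and of proliferation markers, in HC11-ΔSAP (left) and HC11-mutB1 (right) against HC11-FL cells. Points are genes, filled where adjusted p was 0.01 or less, and red bars are medians, which were -0.36 and 0.34 for the 34 genes and -1.24 and 0.40 for the proliferation markers.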

How the data were processed

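Total RNA of 9 samples, 3 per strain, was hybridised to mouse whole-transcript arrays of Affymetrix (Gene 1.0 ST). The authors deposited log2 expression values of 34760 probesets, normalized together by RMA with the affy package (R 2.10.0 in the submitters' processing notes). Scans and scan dates were not used here. In 45.2% of probesets the same value, compared as deposited, occurs in 2 or more arrays, among them 10 of the 34 genes and, within HC11-FL, 6 (Bard1, Rad51ap1, Fancb, Fancc, Atr and Clspn). The cause was not tested.

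Genes were named by the platform annotation, in which 21640 probesets have 1 symbol. The test was that of limma 3.58.1 (R 4.3.3), fitted with a mean for each strain over all 9 arrays (6 residual and 1.93 prior degrees of freedom) and Benjamini-Hochberg adjustment over all probesets. A gene was called at an adjusted p of at most 0.01. The fold minimum of 2 and mean log2 minimum of 4 of the study's methods were an alternative rule. An exact two-sided permutation test of 3 against 3 arrays cannot give a p under 0.1, so it passed no gene. The fit was tested on simulated data for HC11-ΔSAP against HC11-FL cells. It called 29 of 50 probesets changed 1.5-fold and 47 of 50 changed 2.5-fold. The simulation changed 50 probesets at each fold tried, far fewer than the 4562 called in the data, and drew independent noise. These rates therefore need not hold in the data. A gene that did not pass may still differ. Array values are given for genes that pass the methods' filters in any comparison and for the largest changes per role group and comparison, and from every other list the 4 genes with the largest change in HC11-ΔSAP against HC11-FL cells are named. Genes, lists and roles were chosen with earlier results of these data known. The alternatives were other fits, scalings, filters and thresholds, the replicate number as a block, the mean over a gene's probesets, and each array left out in turn. Replicate numbers did not pair the arrays. Promoters are RefSeq's, build GRCm38.p6, whose starts can differ from the ends of the gene.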

Additional observations from a re-analysis of the deposited data

Results flagged for a closer look

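In 5 genes HC11-ΔSAP and HC11-mutB1 cells moved in opposite directions from HC11-FL cells, each past the threshold in limma. The difference between the mutant strains is the sum of these changes and the genes were picked by them, so it is given as a description and adds no support. The log2 difference of HC11-ΔSAP minus HC11-mutB1 cells was -1.74 for Brca1 (adjusted p = 3.45e-06), -1.43 for Brip1 (9.89e-06), -1.21 for Brca2 (1.16e-05), -1.10 for Rad54b (3.73e-05) and -1.51 for Fancb (8.66e-05). The same pattern was found in 0.863% of the 20286 probesets with a mean log2 level of at least 4.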

How the results depend on the processing

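No called value changed sign under any alternative. Calls that held under all of them, the fold minimum apart, were 13 of the 16 lower genes in HC11-ΔSAP against HC11-FL cells, 5 of the 11 higher genes in HC11-mutB1 against HC11-FL cells and 20 of the 23 lower genes in HC11-ΔSAP against HC11-mutB1 cells. With the 2-fold and expression minimum of the methods these counts were 5, 0 and 12. For HC11-ΔSAP against HC11-FL cells, 1 gene, Nbn, was higher where arrays were centred on expressed probesets, eBayes used a trend, probesets under 4 or under 5 were removed, or the threshold was 0.05. For HC11-mutB1 against HC11-FL cells, 1 gene, Fancf, was lower with probesets under 4 or under 5 removed or a threshold of 0.05, and 17 genes of 30 were higher with probesets under 5 removed and 20 with a threshold of 0.05. Removing probesets under 4 gave a median log2 fold change of -0.42 over 32 genes in HC11-ΔSAP against HC11-FL cells, since it takes out Palb2 and Rad51ap1. Scaling moved the median of all probesets by at most 0.04.

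With each array left out in turn, 13 to 16 genes fell and 0 rose in HC11-ΔSAP against HC11-FL cells (median -0.42 to -0.34). In HC11-mutB1 against HC11-FL cells 7 to 11 were higher and 0 to 1 lower (median 0.30 to 0.35), with 7 higher and 1 lower without HC11-mutB1 replicate 2 and 7 higher without replicate 3. In HC11-ΔSAP against HC11-mutB1 cells 20 to 23 were lower and 0 higher (median -0.76 to -0.70).

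By their labels the arrays share only a replicate number. Deviations of same-numbered arrays correlated at 0.26, 0.08 and -0.01 for HC11-ΔSAP and HC11-FL, 0.12, -0.08 and -0.11 for HC11-mutB1 and HC11-FL, and 0.11, -0.04 and 0.05 for HC11-ΔSAP and HC11-mutB1. Those of differently numbered arrays of 2 strains ran from -0.26 to 0.23. With the replicate number as a block, 15 genes were lower and 1 higher, 11 higher and 0 lower, and 22 lower and 0 higher in the 3 comparisons, and the calls that changed were those of Nbn and Clspn, of Rad54b and Rad50, and of Rad51ap1. Over all probesets the block gave 3795, 3463 and 2578 calls, against 4562, 4219 and 3259 without it.

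Limits are the 3 arrays per strain, the single strain per construct, and levels near background for Palb2 and Rad51ap1, where RMA compresses differences. Low levels in HC11-ΔSAP cells alone are a further limit. There the means of Fancm (4.18), Fanci (4.35), Exo1 (4.47) and Rad54b (4.51) lay under 4.53, the lowest median of an array. The effect of these low levels on the fold changes and on their ranking was not tested. The cause of the changes under the alternatives was not tested.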
